A study of Mus musculus with 4 samples.

Results

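The regions described here are stretches of open chromatin that lie where 2 protein-coding genes almost touch. Of 74777 accessible regions (peaks) found by ATAC-seq in mouse hair follicle stem cells, 1068 (1.43%, or 1.48% of the 72012 on the 19 autosomes) overlapped such a place. A place qualified when it lay between neighbouring RefSeq protein-coding genes of assembly GRCm38.p6 whose bounds did not overlap and stood 1 to 1000 bp apart. This stretch is called a close gap here, and a peak was a member when it shared at least 1 base with the gap or with the 200 bp on either side of it. The rule uses positions only, and no measured signal entered the choice.

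The study asked which chromatin is accessible in hair follicle stem cells, the long-lived epithelial cells of the follicle that rebuild the hair shaft in each growth cycle. ATAC-seq maps open DNA by letting the transposase Tn5 insert sequencing adapters into it. Cells were taken from the back skin of female mice at postnatal day 30, released with collagenase and trypsin, and sorted as H2BGFP+, Sca-1-, CD34+ and CD49f+. There were 2 groups. The knockout was K14-H2BGFP, K14Cre, Foxc1 fl/fl and the control was K14-H2BGFP, Foxc1 fl/fl, so that both carried the floxed alleles of Foxc1, a forkhead transcription factor gene, and the GFP reporter, and the control lacked Cre. The K14 (keratin 14) promoter is active across the basal skin epithelium, so deletion need not be limited to the stem cells, and how many animals each library came from is not stated in the labels. Each group was represented by 1 library sequenced in 2 runs, 4 runs in all. The authors deposited a single list of peak coordinates for these runs, with no score and no sample values. Knockout and control therefore cannot be told apart in any value below, sequencing depth is unknown, and an absent peak may be a closed site or one not detectable at this depth.

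Genes whose starts lie back to back are called divergent, and many such pairs in mammals are served by 1 bidirectional promoter, in which RNA polymerase II initiates in both directions from a single nucleosome-poor region. Bidirectional promoters are typically rich in CpG dinucleotides, lack a TATA box and drive genes of basic cell functions such as DNA repair, mitochondria and translation. Close neighbours can also be tandem, where one gene ends just before the next begins, or convergent, where both genes end at the gap and no promoter is expected in it.

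The sorted population was checked against its markers at gene bounds. Of 10 marker genes, 9 had a peak within 200 bp of a bound (Cd34, Itga6, which encodes CD49f, Sox9, Nfatc1, Krt15, Tcf7l1, Lgr5, Krt5 and Krt14), and Lhx2, a stem cell transcription factor gene, had none. The share over all protein-coding genes was 53.0%. It was 24 of 31 for hair follicle stem cell genes, 25 of 30 for basal keratinocyte genes, 12 of 27 for epidermal differentiation genes (44.4%, 27.6 to 62.7%, an interval that holds the 53.0%), and below it for other lineages, with 3 of 23 immune cell genes, 1 of 17 endothelial genes, 4 of 13 melanocyte genes, 5 of 17 dermal fibroblast genes and 1 of 18 hepatocyte genes. The intervals for melanocyte genes (12.7 to 57.6%) and dermal fibroblast genes (13.3 to 53.1%) also hold the share over all genes. Foxc1 itself had a peak at a bound, which does not check its deletion, since the runs share 1 list.

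The DNA of a few gaps is shown first, because it lets a reader see what lay under the peaks. Each sequence is the whole gap between the starts of a divergent pair, read 5′ to 3′ on the plus strand of GRCm38.p6 from the RefSeq promoter table. The gene named first runs leftward from the left end and the second runs rightward from the right end, so by these gene bounds no transcribed base is included. Capitals mark matches, on either strand, to the letters of 5 motifs. The letters searched for the CCAAT-box factor NF-Y were CCAAT, those for factors of the SP and KLF families were GGGCGG, and those for factors of the ETS family were CCGGAAG. For NRF1 they were GCGCATGCG and for the TATA box TATAAA. None of these letter strings contains another. The first 6 gaps are the shortest with a peak and known bases from a list of textbook shared promoters, and the last 2 were chosen after values were seen, to show an NRF1 and an ETS match.
Med22/Rpl7a (chr2:26910643-26910684): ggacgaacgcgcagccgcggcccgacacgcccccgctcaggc
Atm/Npat (chr9:53536829-53536888): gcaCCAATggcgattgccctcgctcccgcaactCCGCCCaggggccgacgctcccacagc
Wrap53/Trp53 (chr11:69580251-69580347): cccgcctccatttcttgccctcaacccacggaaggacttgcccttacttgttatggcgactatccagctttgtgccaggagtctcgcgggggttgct
Mrps12/Sars2 (chr7:28741822-28741956): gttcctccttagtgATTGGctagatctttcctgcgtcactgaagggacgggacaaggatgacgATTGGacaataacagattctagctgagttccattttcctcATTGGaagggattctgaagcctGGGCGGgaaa
Brca1/Nbr1 (chr11:101551956-101552106): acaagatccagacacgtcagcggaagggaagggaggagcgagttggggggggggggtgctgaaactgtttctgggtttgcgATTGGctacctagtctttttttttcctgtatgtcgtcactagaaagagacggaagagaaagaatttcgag
Psmb9/Tap1 (chr17:34187331-34187555): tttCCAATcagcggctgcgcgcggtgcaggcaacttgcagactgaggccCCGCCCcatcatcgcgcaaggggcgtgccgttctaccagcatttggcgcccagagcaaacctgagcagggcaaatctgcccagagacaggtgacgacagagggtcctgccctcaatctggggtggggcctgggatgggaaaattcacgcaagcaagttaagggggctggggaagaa
Atp6v1d/Eif2s1 (chr12:78862009-78862071): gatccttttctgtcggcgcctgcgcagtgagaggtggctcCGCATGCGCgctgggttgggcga
1700088E04Rik/Polr2f (chr15:79141252-79141324): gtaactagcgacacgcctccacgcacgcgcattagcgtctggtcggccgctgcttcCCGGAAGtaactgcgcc

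All 8 of these gaps lay wholly inside a peak. They ranged from 42 bp at Med22/Rpl7a to 225 bp at Psmb9/Tap1, and their GC content from 48.1% at Mrps12/Sars2 to 81.0% at Med22/Rpl7a. Med22 encodes a Mediator subunit and Rpl7a a protein of the large ribosomal subunit. Their 42-bp gap held 8 CpG and no match to the 5 motifs. Mrps12/Sars2, which encode a mitochondrial ribosomal protein and the mitochondrial seryl-tRNA synthetase, had 3 CCAAT matches and 1 GGGCGG match in 135 bp. Eif2s1 encodes a translation initiation factor subunit and Polr2f a subunit shared by the nuclear RNA polymerases, and their gaps held 1 NRF1 and 1 ETS match. No TATAAA was present in any of the 8 gaps. A match is a string of letters, not a measured binding site.

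For contrast, the next lines give the 2 shortest divergent gaps of at least 50 bp that had no peak. The minimum of 50 bp was set after values were seen, and these 2 do not stand for the whole class, whose promoters have a median CpG content given further on.
Acp4/Gm15517 (chr7:44261391-44261440): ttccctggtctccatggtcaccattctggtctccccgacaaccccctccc
Rnf123/Mst1 (chr9:108080353-108080408): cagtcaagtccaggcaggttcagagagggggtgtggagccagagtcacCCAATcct

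These gaps held 1 CpG in 50 bp at Acp4/Gm15517 and 0 CpG in 56 bp at Rnf123/Mst1. Their ratios of observed to expected CpG, 0.30 and 0.00, lie below the median of 0.607 of promoters at divergent gaps without a peak. Acp4 encodes an acid phosphatase, and Mst1 encodes macrophage-stimulating protein, a secreted factor made mainly in liver. The last set shows histone genes, which stand apart in sequence and in their peaks and were chosen after values were seen.
H2ac15/H2bc15 (chr13:21753913-21754075): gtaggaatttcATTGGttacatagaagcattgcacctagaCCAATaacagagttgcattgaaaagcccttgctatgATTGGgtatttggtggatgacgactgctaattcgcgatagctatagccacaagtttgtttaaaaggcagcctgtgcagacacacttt
H2bc23/H2ac23 (chr13:21810200-21810366): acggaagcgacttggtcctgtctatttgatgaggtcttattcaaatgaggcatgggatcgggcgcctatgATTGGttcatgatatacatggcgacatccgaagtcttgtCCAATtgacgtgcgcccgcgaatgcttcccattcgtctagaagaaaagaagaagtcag
H2bc1/H2ac1 (chr13:23934157-23934436): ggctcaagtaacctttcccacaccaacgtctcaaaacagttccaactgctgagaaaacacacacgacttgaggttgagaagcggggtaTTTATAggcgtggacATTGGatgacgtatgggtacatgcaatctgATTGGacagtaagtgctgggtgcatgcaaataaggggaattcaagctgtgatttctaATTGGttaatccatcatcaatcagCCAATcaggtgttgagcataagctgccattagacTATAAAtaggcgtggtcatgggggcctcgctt

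The gaps at H2ac15/H2bc15 and H2bc23/H2ac23, pairs of replication-dependent H2A and H2B genes, had 3 and 2 CCAAT matches at a GC content of 41.7% and 47.9%, and both lay inside a peak. The gap at H2bc1/H2ac1, a histone pair expressed in testis, had 4 CCAAT and 2 TATAAA matches. Its only peak was 224 bp wide and lay beside the gap on the H2bc1 side, short of the gap itself.

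In the whole genome outside the sex chromosomes there were 1958 close gaps, bounded by 3542 of 20665 protein-coding genes (17.1%). A peak was present at 1060 of them, 54.1% (Wilson 95% interval 51.9 to 56.3%, which like all intervals here covers counting error only). The direction of both genes was known for 1397 gaps (71.3%): 548 divergent, 435 tandem and 414 convergent. Shares differed by orientation. Divergent gaps had a peak in 515 of 548 cases (94.0%, 91.7 to 95.7%), tandem gaps in 254 of 435 (58.4%, 53.7 to 62.9%) and convergent gaps in 25 of 414 (6.04%, 4.12 to 8.76%), and no pair of these intervals overlapped. The order depended on how overlap was counted: when at least 50% of the peak had to lie in the extended gap, divergent gaps had 18.1% (15.1 to 21.5%), below tandem gaps with 30.6% (26.4 to 35.1%), and convergent gaps had 2.66%. Gaps of unknown direction fell between, with 266 of 561 (47.4%).

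**Figure D1:**
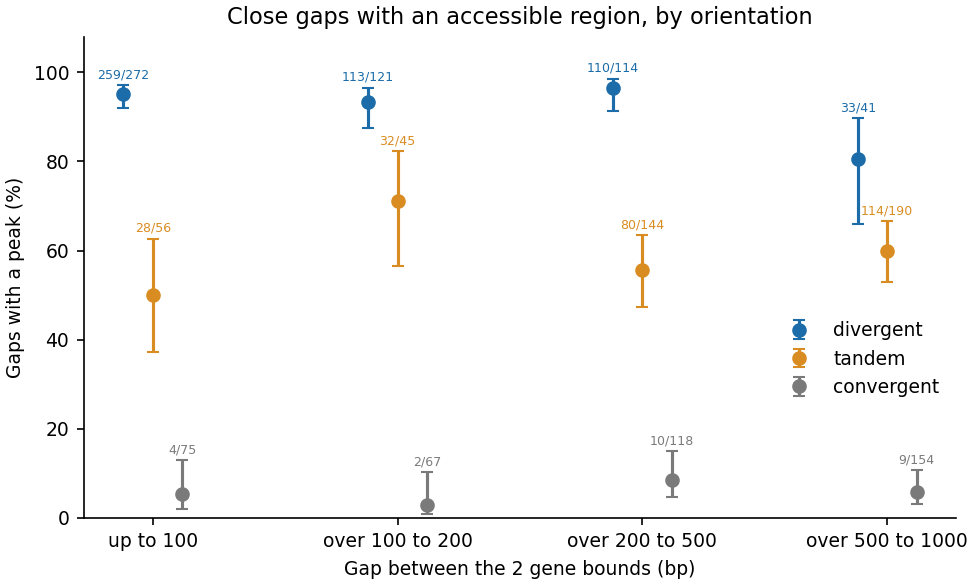
Share of close gaps with a peak (vertical axis, percent) by gap length in bp (horizontal axis) for divergent, tandem and convergent pairs. Points are shares, bars are Wilson 95% intervals and the small figures give gaps with a peak over all gaps. Divergent gaps up to 500 bp stay at 93.4 to 96.5% and convergent gaps at 2.99 to 8.47% at all 4 lengths.

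Over all pairs the share fell with gap length, while within an orientation it followed no common order. It went from 68.7% of 547 gaps up to 100 bp, through 61.5% of 314 and 49.6% of 516, to 40.4% of 581 gaps over 500 bp, a difference of 28.3 percentage points (22.6 to 33.7). Within divergent gaps the 4 length classes gave 95.2%, 93.4%, 96.5% and 80.5%, with an interval of 66.0 to 89.8% for the 41 gaps of the longest class. Within tandem gaps they gave 28 of 56, 71.1%, 55.6% and 114 of 190, and within convergent gaps 5.33%, 2.99%, 8.47% and 5.84%, in no order of length. The orientations differed in length: the median gap was 102 bp (90.0 to 114) for divergent, 449 bp (402 to 488) for tandem and 382 bp (351 to 428) for convergent pairs. The overall trend with length depended on how overlap was counted. When at least 50% of the peak had to lie in the extended gap, which a wide peak at a short gap cannot meet, the difference became -18.5 points.

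The same measure at single gene bounds gives the background. A peak lay within 200 bp of 52.1% of all 16457 starts of protein-coding genes with known strand and of 5.17% of their ends. Starts with no other protein-coding bound within 5000 bp, called lone starts, had one in 5197 of 11456 cases (45.4%, 44.5 to 46.3%), and lone ends in 3.04%. Starts at divergent gaps had one in 1023 of 1096 cases (93.3%, 91.7 to 94.7%), far above the interval of lone starts. Starts at tandem gaps, at 58.2% (53.5 to 62.7%), also lay above lone starts. Ends at tandem gaps had one in 43.2% of cases, and ends at convergent gaps in 41 of 828 (4.95%, 3.67 to 6.65%), an interval that holds the share of all ends and lies above that of lone ends (2.72 to 3.38%). A tandem end lies by construction next to a start, and 1 peak can count for both. Likewise 1 peak can count for both starts of a divergent gap or both ends of a convergent gap. The intervals for those bounds are therefore too narrow, and whether convergent ends exceed lone ends is uncertain.

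Members usually bridged the whole gap. Of the 1068 members, 802 (75.1%) covered every base between the genes, 494 of 520 at divergent gaps, 126 of 258 at tandem gaps (48.8%) and 7 of 25 at convergent gaps (28.0%). The share was 95.2% at gaps up to 100 bp and 27.9% at gaps over 500 bp. At divergent gaps these covering peaks reached a median of 666 bp into the lower-coordinate gene and 662 bp into the higher one, and their midpoints lay a median of 126 bp from its middle. The similar medians do not mean that single peaks were centred: the median divergent gap, 102 bp, is shorter than this offset, and requiring the midpoint in the extended gap lowered the share of divergent gaps with a peak from 94.0% to 71.2%. The 2 extensions were only weakly related across the 494 gaps (Pearson r = 0.10, Spearman rho = 0.20), as were peak width and gap length across 515 divergent gaps (r = 0.10, rho = 0.17). These correlations are over gaps of 1 peak list and describe it only. A small group of 43 members (4.03%) touched only the 200 bp beside the gap.

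**Figure D2:**
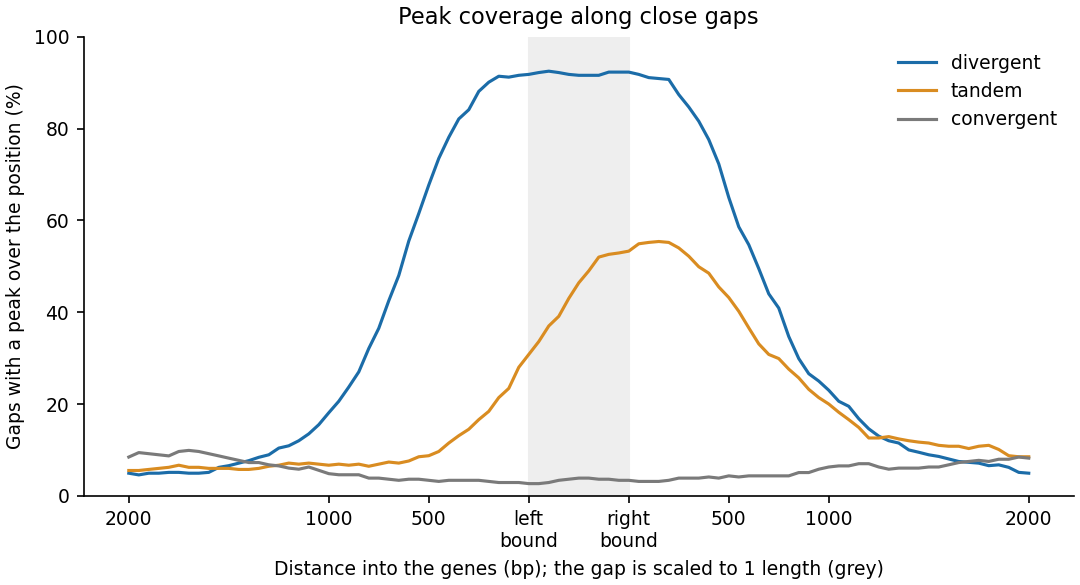
Share of close gaps with a peak over each position (vertical axis, percent), from 2000 bp inside the left gene to 2000 bp inside the right gene, with the gap scaled to 1 length in grey. Lines are the 3 orientations, and tandem pairs are turned so that the left bound is the end of the upstream gene and the right bound the start of the downstream gene. The divergent line stands at 91.6% in the gap centre, the tandem line rises from 30.8% at the left bound to 53.3% at the right, and the convergent line is at its low in and around the gap.

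The coverage along the pairs showed 3 shapes. Divergent pairs had a symmetric plateau, with 91.6% of gap centres under a peak, 67.7% and 65.0% at 500 bp into the left and right gene, 18.1% and 23.0% at 1000 bp, and 4.93% at 2000 bp on each side. Tandem pairs leaned towards the downstream start: 30.8% were covered at the upstream end, 46.4% at the gap centre, 53.3% at the start and 55.4% at 150 bp into the downstream gene. Convergent pairs had a shallow dip, with 3.86% covered at the centre against 8.45% and 8.21% at 2000 bp into the genes.

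At tandem gaps most peaks were centred nearer to the start of the downstream gene than to the end of the upstream gene. Of 259 pairings of a peak with a tandem gap, 106 (40.9%) covered the start alone, 8 (3.09%) the upstream end alone, 126 (48.6%) both and 19 (7.34%) neither. The midpoint was nearer to the start in 221 (85.3%, 80.5 to 89.1%). It lay a median of 200 bp from the start and 563 bp from the upstream end. Tap1/Psmb8, neighbours that serve antigen presentation, is an example of this class, with a 1493-bp peak at a 969-bp gap.

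Divergent pairs were then followed to larger distances to see how far apart 2 starts shared a peak. Pairs up to 500 bp apart had 1 peak reaching within 200 bp of both starts in 95.2% (up to 100 bp), 93.4% and 94.7% of cases. Over 500 to 1000 bp the share was 61.0% (25 of 41), over 1000 to 2000 bp 13.2% (7 of 53), and over 2000 to 5000 bp 0 of 163, which allows a share of up to 1.84% (3 counts over the total, used here for every count of 0). At short distances this is close to the share with any peak, because the windows around the starts overlap. Separate peaks at both starts were seen in 0 of 272 pairs up to 100 bp, which allows up to 1.10%, in 7.32% over 500 to 1000 bp, and in 24.5% over 1000 to 2000 bp. Pairs with a peak at only 1 of the starts went from 0 of 272 to 1.75%, 12.2% and 47.2% across gaps up to 100, over 200 to 500, over 500 to 1000 and over 1000 to 2000 bp. Beyond 5000 bp they made up 39.0 to 45.2% of pairs. The share of pairs with no peak at either start was 3.51 to 6.61% up to 500 bp and 15.1 to 31.6% in the longer classes.

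**Figure D3:**
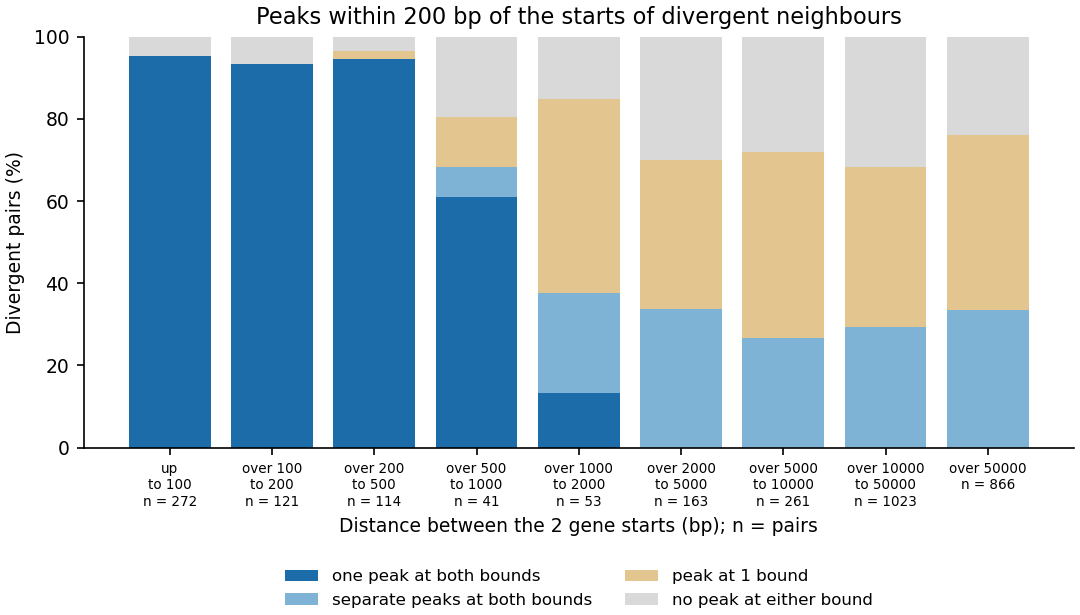
Divergent pairs of neighbouring protein-coding genes by the distance between their starts in bp (horizontal axis) and, as stacked bars in percent of pairs, whether 1 peak reached both starts, separate peaks did, 1 start had a peak or neither had. A peak counts for a start within 200 bp of it. The shared-peak class falls from 94.7% over 200 to 500 bp to 61.0% over 500 to 1000 bp and 13.2% over 1000 to 2000 bp.

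Width is the only property of a peak that the list holds. Members had a median width of 1358 bp (1317 to 1399, middle 50% from 1008 to 1846, range 200 to 5331), against 594 bp for all autosomal peaks and 524 bp (520 to 527) for the 61842 peaks away from protein-coding bounds. Peaks at lone starts had a median of 1350 bp (1329 to 1375), an interval that overlaps that of the members. The orientations were not alike. Divergent members measured 1510 bp (1429 to 1585, n = 520), tandem members 1152 bp (1085 to 1213, n = 258) and convergent members 1073 bp (826 to 1985, n = 25). A wide peak is more likely to touch any window, so peaks were also compared by midpoint. Those with a midpoint within 600 bp of a start were 1471 bp wide at divergent gaps (1408 to 1555, n = 501) and 1269 bp at lone starts (1249 to 1289, n = 4829). Only 1 member (0.0936%) was at the smallest width of the list, 200 bp, against 6.32% of autosomal peaks, and 41 members (3.84%) exceeded 3000 bp, against 1.14%.

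**Figure D4:**
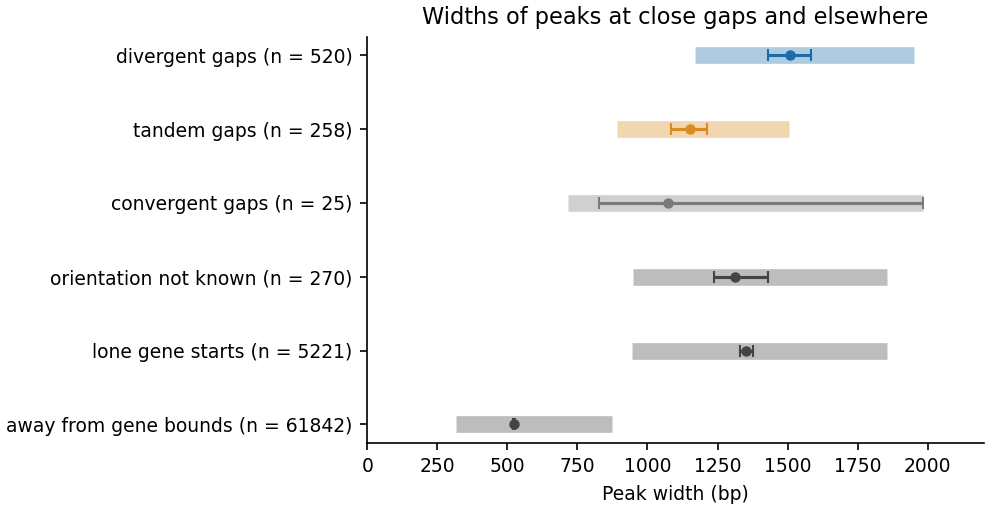
Peak width in bp (horizontal axis) for members by orientation and for peaks at lone gene starts and away from protein-coding bounds. Points are medians with their 95% intervals and pale bars span the middle 50% of peaks. Divergent members (1510 bp) lie above lone starts (1350 bp), tandem members (1152 bp) lie below, and peaks away from bounds (524 bp) are the narrowest.

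Pairs with a gene from the list of textbook shared promoters bounded 15 close gaps, and 10 of these had a peak, including all 7 of known divergent direction. Against the 54.1% of all close gaps this list is small and was chosen for its promoters, so its share is a description. Atm, the kinase that signals DNA double-strand breaks, and Npat, a coactivator of histone genes, shared a peak of 2085 bp across a 60-bp gap. Brca1, needed for repair by homologous recombination, and Nbr1, an autophagy receptor gene, shared one of 1351 bp across 151 bp. Wrap53/Trp53, the latter encoding p53, had 1808 bp over 97 bp. Gart/Son, a purine synthesis enzyme and a splicing cofactor, had 1949 bp over the longest divergent gap of the list, 851 bp. Med22/Rpl7a had 1320 bp, Mrps12/Sars2 1394 bp and Psmb9/Tap1, an immunoproteasome subunit and a peptide transporter, 1377 bp. All 7 exceeded the 594 bp of the median autosomal peak, a width that 94.4% of all members reached. Mcm4/Prkdc, a replicative helicase subunit and the catalytic subunit of DNA-dependent protein kinase, had 1500 bp, and the direction of this pair was not known from the table. The 5 gaps of the list with no peak were Nbr1/Tmem106a, which is tandem, Rpl7a/Surf1, which is convergent, and Efnb3/Wrap53, Dnd1/Hars and Tmem258/Myrf, of unknown direction. Wrap53, Nbr1 and Rpl7a thus had a peak in the gap on one side and none on the other.

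The 10 widest members spanned 3872 to 5331 bp. The widest lay at Hspa1a/Hspa1l, genes of the inducible HSP70 chaperone and a testis relative, where the gap is 546 bp. Next came Gm51571/Gm51572, provisional genes, with 5110 bp in a peak beside the gap that did not reach into it. Another peak of 2487 bp did reach into that gap. Then came Car11/Dbp with 4663 bp, where Dbp encodes a circadian transcription factor, and the zinc finger pair Zfp53/Zfp52 with 4498 bp. Ssrp1/Tnks1bp1, with the gene of a histone chaperone subunit, had 4482 bp. Hrc/Ppfia3 had 4368 bp and was convergent, the one member of that class among the 10. Il17rb/Chdh, a cytokine receptor and choline dehydrogenase, were separated by 4 bp and shared 4269 bp. Tent4a/A930018O16Rik had 4168 bp, Gm40365/Gm36327 4122 bp and Ddias/Prcp 3872 bp. By direction 4 of the 10 were divergent, 2 tandem, 1 convergent and 3 unknown.

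Few genes on the lists that characterise the sorted cells bounded a close gap, and with lists this short the shares are imprecise. Of 31 hair follicle stem cell genes 2 bounded one, 6.45% against 17.1% of all protein-coding genes, and both gaps had a peak. Zfp36l1, an mRNA-decay factor gene, had a 999-bp peak at its 566-bp tandem gap with Gm52006, and S100a4, a calcium-binding protein gene, one of 509 bp at its 434-bp tandem gap with S100a5. Of 30 basal keratinocyte genes 2 bounded a close gap (6.67%) and neither had a peak: Lama3, a laminin-332 chain of the basement membrane, with Ttc39c, and Ctnnd1, the cadherin partner p120-catenin, with Btbd18. Ctnnd1/Btbd18 is 94 bp, divergent, and had its nearest peak 7716 bp away. The direction of Lama3/Ttc39c was not known. Of 27 epidermal differentiation genes none bounded a close gap. Genes of signalling pathways were counted next. B9d2/Tgfb1, with the gene of the growth factor TGF-beta 1, a signal for follicle cycling, had a 2262-bp peak at a 439-bp tandem gap and was the sole gap of 35 BMP and TGF-beta genes (2.86% of genes). Of 41 WNT genes 4 (9.76%) bounded 5 gaps, and 1 had a peak: Shc1/Pygo2 (tandem, 889 bp), where Pygo2 encodes a coactivator of beta-catenin. Phf23/Dvl2 (tandem), Dvl2/Acadvl and Zfp526/Gsk3a (both convergent) and Axin1/Pdia2 (direction unknown) had none. No gap of the WNT list was known to be divergent, and over all convergent gaps the share with a peak was 6.04%.

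Genes of basic cell machinery often bounded close gaps, which 17.1% of all protein-coding genes did. Of 101 respiratory chain genes 49 bounded one (48.5%), and 39 of their 50 gaps had a peak (78.0%), with 25 of 25 divergent, 4 of 6 tandem and 1 of 8 convergent gaps. Over all close gaps the share was 54.1%, and over all divergent gaps, which made up 39.2% of gaps of known direction and more of this list, it was 94.0%. The divergent counts here and in the lists that follow are to be read against that share. Atp5c1/Kin, an ATP synthase subunit and a DNA-binding protein, shared 1757 bp across 40 bp. The tandem gaps Atp5b/Baz2a and Atp5e/Prelid3b had 1297 and 1316 bp. Atp5d/Midn, Cox7a1/Capns1 and Doc2g/Ndufv1 had no peak, and the last 2 of these are convergent. In each of the 7 lists that follow, at most 1 convergent gap had a peak.

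DNA repair genes came close to this, with 41 of 92 at a close gap (44.6%) and a peak at 33 of 46 gaps (71.7%), 23 of 23 among divergent ones and 1 of 4 among tandem ones. Aimp2/Pms2, with the mismatch repair gene Pms2, had 1484 bp at 61 bp, and Ankrd49/Mre11a, with the nuclease gene of the MRN complex, 1768 bp at 80 bp. Apex1/Pip4p1 and Efemp2/Mus81, both convergent, and Dkk4/Polb had none. In the list of cell cycle and replication genes 18 of 88 (20.5%) bounded a gap, and 11 of 21 gaps had a peak, including 6 of 6 divergent ones. Examples were Alyref/Anapc11 with 731 bp, Cenpp/Nol8 with 1380 bp and Cenpt/Thap11 with 892 bp, which join genes of the anaphase-promoting complex or the kinetochore to a neighbour. Anapc11/Npb, Ccna2/Bbs7 and Cops6/Mcm7 had none. This list, at 52.4% of gaps, was near the 54.1% of all close gaps. Its 20.5% of genes at a gap was likewise near the 17.1% of all protein-coding genes.

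Translation genes bounded gaps more often than the 17.1% of all genes. Mitochondrial ribosome genes had 30 of 78 at a close gap (38.5%) and a peak at 25 of 34 gaps (73.5%), with 16 of 16 divergent. Abhd8/Mrpl34 had 2417 bp, Atat1/Mrps18b 1106 bp and Eme2/Mrps34 977 bp, while the convergent Actl6a/Mrpl47, Copb2/Mrps22 and Dph7/Mrpl41 had none. Cytosolic ribosome genes had 26 of 95 at a gap (27.4%) and a peak at 21 of 34 gaps (61.8%), but at 9 of 11 divergent ones. The divergent pairs without a peak were Lrsam1/Rpl12 and, named after its values were seen, Rnf151/Rps2. Ribosomal protein genes have many processed copies elsewhere in the genome, and how reads that map to several places were treated is not stated in the labels. The tRNA synthetases, with 32.4% of genes at a gap, had 11 of 14 gaps with a peak, 5 of 5 divergent, and the tandem Aars/Exosc6 had 1443 bp. Proteasome genes, with 31.2% at a gap, had a peak at 11 of 19 (57.9%, near the 54.1% of all close gaps), 7 of 7 divergent, such as Ftsj3/Psmc5 with 1236 bp. Zinc finger genes with a Zfp symbol were at a gap in 10.6% of cases and had a peak at 26 of 37 gaps, 12 of 12 divergent, such as Ccdc92/Zfp664 with 1542 bp. Convergent gaps without a peak in these lists were Ggn/Psmd8, Naxd/Cars2 and Pcif1/Zfp335.

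Histone genes had the widest peaks of any list with at least 5 gaps. Of 67 genes in the list, which holds the clustered and linker histones, 43 (64.2%) bounded a close gap, and all 25 gaps had a peak, with a median width of 2182 bp. In the cluster on chromosome 13 single peaks ran across several genes: 3478 bp covered the gaps H2bc13/H2ac13 and H2ac13/H3c10, 3338 bp those at H2bc23/H2ac23 and H2ac23/H4c17, and 3809 bp those at H4c18/H2ac24 and H2ac24/H4bc24. The convergent gap H2ac21/H2ac20 on chromosome 3 lay in a 2456-bp peak that also covered H2ac20/H2bc21. These 4 peaks, with that at H2bc7/H2ac7 and H2ac7/H3c4, are 5 of only 6 members that touched more than 1 gap. The other was a 1534-bp peak at Wdr74/1700092M07Rik and 1700092M07Rik/Stx5a. Near-identical histone genes share reads, so that the edges of these peaks are uncertain. The narrowest of the 25 widths, 224 bp, was at the testis pair H2bc1/H2ac1, the gap shown above with its TATAAA matches.

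The remaining lists varied. Of 1511 chemoreceptor genes 10 (0.662%) bounded one, and 3 of 8 gaps had a peak: Tas1r1/Nol9, Zbtb48/Tas1r1 and Ubd/Olfr94, each with a neighbour that is not a receptor. Mgat1/Olfr1393, Olfr1393/Olfr1392 and Olfr181/Olfr183 had none, and for the last the nearest peak was 158778 bp away. Keratin-associated proteins, protocadherins, hepatocyte and dermal fibroblast genes had no close gap. Immune cell genes had 5 gaps (21.7% of 23 genes, against 17.1% of all), of which Cd68/Eif4a1 had a 701-bp peak and Csf1r/Hmgxb3 and Gpr162/Cd4 were among those without. Endothelial genes had 3 at 17.6% of 17 genes (Egfl7/Agpat2, convergent, and Esam/Vsig2 and Tek/Eqtn, of unknown direction). Melanocyte genes had 1 (Mc1r/Tubb3, tandem). All of these were without a peak. Of 18 housekeeping genes 27.8% bounded a gap, and 3 of these 5 gaps had a peak: Eef2/Dapk3 with 1299 bp, Iffo1/Gapdh with 1656 bp and Sdha/Ccdc127 with 1272 bp. Slc35b2/Hsp90ab1 was among those without.

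The 33 divergent gaps without a peak lay at widely different distances from other peaks. Their nearest peak was a median of 7716 bp away (1935 to 20315), it lay within 1000 bp at 6 gaps and beyond 10000 bp at 16. The genes named here were chosen after their values were seen. Rec114/Hcn4, a meiotic recombination gene and a cardiac pacemaker channel gene, had no peak within 204744 bp. Gbx2/LOC102637806, with a homeobox gene of the brain, had none within 119066 bp. Smc1b/Ribc2 (34502 bp), with the meiotic cohesin gene Smc1b, Mlc1/Mov10l1 (45394 bp), with a piRNA pathway gene of the germline, and Bhmt2/Dmgdh (60937 bp), enzymes of choline breakdown in liver, were alike in this. Other pairs without a peak held genes of general use, such as Coa3/Cntd1 (18488 bp), with a cytochrome c oxidase assembly factor, Entr1/Pmpca (19259 bp), with a mitochondrial processing peptidase subunit, and Rfng/Gps1 (15810 bp), with a COP9 signalosome subunit. Mup15/Mup-ps12 and Mup19/Mup-ps16 belong to the major urinary protein family, whose near-identical copies make read placement uncertain.

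The 25 convergent gaps with a peak were likewise looked at 1 by 1, and examples were chosen after their values were seen. A start listed in the promoter table lay inside 4 of the 25 peaks (16.0%, 6.40 to 34.7%), at Hmga1/AI413582, H2ac21/H2ac20, Smim27/Ndufb6 and Leng8/Leng9. The same was true of 514 of 520 divergent members (98.8%), 232 of 258 tandem members (89.9%) and 3.43% of peaks away from protein-coding bounds. Most convergent members thus covered no listed start. Duoxa2/Duoxa1 and Duox1/Shf, at dual oxidase genes of epithelia, had peaks of 681 and 1185 bp. Slx4ip/Jag1, with the gene of the Notch ligand Jagged1, had 1494 bp in a peak beside the gap that did not reach into it. Cd63/Rdh5 had 1032 bp and Rhoc/Mov10 406 bp. Only 7 of the 25 covered their gap whole.

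A pair of peaks occurred at 14 gaps (1.32% of gaps with a peak), and none had 3. Names in this paragraph were chosen after values were seen. Sgce/Peg10, neighbouring imprinted genes, had peaks of 422 and 2394 bp around a 101-bp gap. Jund/Iqcn, with a gene of the AP-1 factor JunD, had 3013 and 2247 bp. Zfyve26/Rad51b, with a recombination gene, had 1089 and 692 bp at a 958-bp gap.

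The promoter sequence of genes at close gaps was compared using RefSeq windows of 300 bases, from 250 before to 50 after the start (assembly GRCm38.p6). For each gene the listed start nearest its outer bound was taken, if it lay within 500 bp of that bound. Of 1531 genes that start at a divergent or tandem gap 1348 had such a window, as did 14217 of the 16457 protein-coding genes with known strand. The listed starts of the other genes with known strand lay farther from the bound. CpG content is given as observed over expected, where 1 means as many CpG as the C and G content predicts. Promoters at divergent gaps with a peak had a median of 0.865 (0.851 to 0.878, n = 950), against 0.778 (0.770 to 0.784, n = 5853) for accessible promoters not at a close gap and 0.595 over all promoters. Promoters at tandem gaps with a peak had 0.720 (0.694 to 0.748, n = 226). Without a peak the medians were 0.607 (0.275 to 0.703, n = 53) for divergent and 0.377 (0.310 to 0.437, n = 119) for tandem gaps. GC content moved less, with 62.7% at divergent gaps with a peak and 61.7% at accessible promoters not at a close gap. Both promoters of a pair can share bases, so they are not independent. With 1 promoter per gap the CpG median was 0.857.

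Starts were also split into 4 classes of CpG content, and in each class starts at divergent gaps had a peak more often than starts away from close gaps. This comparison was chosen after the data were seen, and CpG content is not equal within a class: the open upper class held 61.4% of divergent starts and 26.1% of those away from close gaps. In the class from 0.4 to under 0.6 it was 65 of 69 (94.2%, 86.0 to 97.7%) against 799 of 1422 (56.2%, 53.6 to 58.7%). From 0.6 to under 0.8 it was 266 of 280 against 1710 of 2166 (78.9%), and from 0.8 upwards 97.7% (96.2 to 98.6%) against 87.6% (86.4 to 88.7%). Below 0.4 it was 11 of 38 (28.9%, 17.0 to 44.8%) against 13.1% (12.2 to 14.1%). Starts at tandem gaps, at 59.7%, 80.2% and 89.8% in the 3 upper classes, had intervals that overlapped those of starts away from close gaps. Below 0.4 they had 29.8% (21.5 to 39.7%). A start at a divergent gap can count the peak of its partner as its own, since the partner lies within the gap length. The intervals of divergent starts are therefore too narrow.

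**Figure D5:**
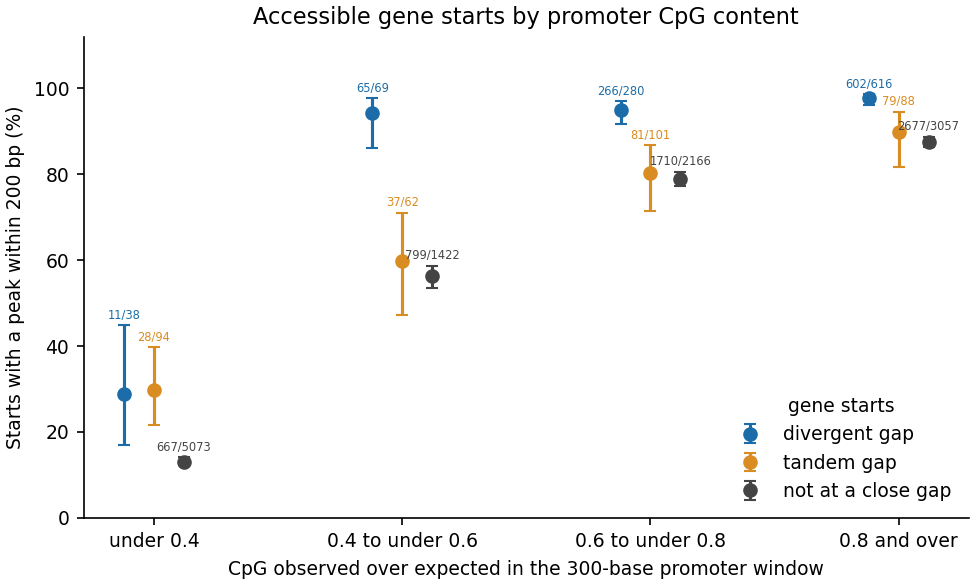
Share of gene starts with a peak within 200 bp (vertical axis, percent) by CpG observed over expected in the 300-base promoter window (horizontal axis), for starts at divergent gaps, at tandem gaps and not at a close gap. Points are shares, bars Wilson 95% intervals, and the small figures give starts with a peak over all starts. In the class from 0.4 to under 0.6 divergent starts reach 94.2% and starts not at a close gap 56.2%.

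Motif letters were searched on both strands in the same windows. Both windows of a divergent pair can share bases, so the same letters can count for 2 promoters and the intervals of divergent gaps are too narrow. ETS letters (CCGGAAG) were in 29.6% (26.8 to 32.6%) of promoters at divergent gaps with a peak and in 24.3% (19.2 to 30.3%) at tandem gaps with a peak, against 17.5% (16.5 to 18.5%) of accessible promoters not at a close gap and 12.5% of all promoters. YY1 letters (AAGATGGCG) were in 6.42% (5.03 to 8.16%) of promoters at divergent gaps with a peak, 2.96% (2.55 to 3.42%) of accessible ones not at a close gap and 1.99% of all. NRF1 letters (GCGCATGCG) were in 5.58% (4.29 to 7.23%), 3.83% (3.37 to 4.35%) and 2.63%, in the same order, and the first 2 intervals overlap. With the looser letters GCGCANGCG the NRF1 shares were 22.6% (20.1 to 25.4%), 820 of 5853 promoters (13.1 to 14.9%) and 9.40%. NF-Y letters (CCAAT) were in 45.4% (42.2 to 48.5%), 40.0% (38.7 to 41.3%) and 39.6%, and SP/KLF letters (GGGCGG) in 70.1% (67.1 to 72.9%), 67.8% (66.6 to 69.0%) and 47.4%, where the first 2 intervals overlap. With 1 promoter per divergent gap with a peak, ETS letters were in 28.5% (24.6 to 32.7%), YY1 letters in 5.94% (4.14 to 8.46%) and NF-Y letters in 47.3% (42.9 to 51.9%). These 3 intervals still lay above those of accessible promoters not at a close gap. For NF-Y this depended on histone genes. Without them its letters were in 44.3% (41.1 to 47.5%) of promoters at divergent gaps with a peak, which overlaps 38.7 to 41.3%. At divergent gaps without a peak NF-Y letters were in 47.2% (34.4 to 60.3%) of promoters. ETS factors, YY1 and NRF1 are transcription factors that bind close to the starts of widely expressed genes.

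TATAAA went the other way, in 4.74% (3.56 to 6.28%) of promoters at divergent gaps with a peak, in 410 of 5853 accessible ones not at a close gap (6.38 to 7.69%) and in 14.1% of all. With 1 promoter per divergent gap it was in 4.67% (3.10 to 6.97%), an interval that overlaps that of accessible promoters not at a close gap. The shares that follow are in the order of the first sentence. AP-1 letters (TGANTCA) were in 3.58% (2.57 to 4.96%), 5.07% (4.54 to 5.67%) and 7.23%, and forkhead letters (TGTTTAC), of interest because Foxc1 is a forkhead factor, in 1.47% (0.880 to 2.46%), 2.48% (2.11 to 2.91%) and 3.02%. RUNX letters (TGTGGTT) were in 3.05% and 3.43% of the first 2 sets and 4.92% of all, E-box letters (CACGTG) in 10.6%, 11.0% and 8.15%, CRE letters (TGACGTCA) in 3.68%, 3.81% and 2.50%, and ZNF143 letters (ACTACAATT) in 1.37%, 0.786% and 0.577%. AP-1, forkhead and RUNX factors are known from enhancers of skin epithelium, and for the letters of each the intervals of the first 2 sets overlap. For AP-1, forkhead, NRF1 and RUNX letters, tandem gaps with a peak, like divergent ones, had intervals overlapping those of accessible promoters not at a close gap. For YY1 letters, and for TATAAA over all windows, only the tandem gaps did. Their promoters held TATAAA in 10.2% (6.88 to 14.8%), AP-1 letters in 5.31% (3.06 to 9.05%), forkhead letters in 3.54% (1.80 to 6.83%), YY1 letters in 2.65% (1.22 to 5.67%), NRF1 letters in 5.75% (3.39 to 9.59%) and RUNX letters in 1.77% (0.690 to 4.46%), and each of these intervals overlaps that of accessible promoters not at a close gap. Histone promoters at close gaps with a peak were a class of their own: of 28 windows, 26 (92.9%) held CCAAT and 17 (60.7%) held TATAAA, at a median GC content of 44.7%. Without them TATAAA was in 3.54% of promoters at divergent gaps with a peak.

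On either side of the limit of 1000 bp the shares were close. Of 46 gaps up to 50 bp below the limit 18 had a peak (39.1%), and of 35 up to 50 bp above it 14 (40.0%). Just inside, the divergent gap Pcgf2/Psmb3 (999 bp) had a 1191-bp peak and the convergent Gm30191/Grrp1 (999 bp) none. Just outside, the tandem Ankrd34a/Lix1l (1006 bp) had a 1219-bp peak and the convergent Pigz/0610012G03Rik (1001 bp) none.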

How the data were processed

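The tools named are Bowtie2, MACS2 and bedtools, and the genome build is mm10, per the submitters' processing notes. Not given in the sources used here are their versions and settings, read filters, any Tn5 offset and whether runs were pooled before peaks were called. For all 4 runs the authors deposited 1 table of 3 columns (chromosome, start and end, counted from 0), with no score, count or sample value, so the 2 genotypes were not compared and no test was run. Columns of per-sample values left unused numbered 0. Runs of a genotype were counted as 1 library.

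Starts were converted to 1-based positions. Gaps are ground between neighbouring protein-coding genes of the RefSeq gene table (GRCm38.p6, whose chromosomes are those of mm10), covered by no other protein-coding gene. Strand came from the RefSeq promoter table, which gave it for 16457 of 20665 genes. Shares have Wilson intervals and medians order-statistic intervals at the 95% level. Python 3.11.15, numpy 2.4.6, pandas 2.3.3 and matplotlib 3.10.9 were used, and the overlap code was tested on simulated data.

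The members, gene lists and measures were chosen with earlier results of these data known. Named pairs are all those of the textbook, hair follicle stem cell, basal keratinocyte, BMP and TGF-beta, WNT and epidermal differentiation lists, the 10 widest members, the first pairs in alphabetical order with and without a peak (up to 3 each) of other lists, and the pairs nearest the 1000-bp limit. Pairs outside this rule are marked as chosen later, and a few pairs that the rule names are not reported here. Alternatives varied the extension, the distance limit, the overlap rule, the peak width, the gene set, the neighbour definition and the motif letters.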

Additional observations from a re-analysis of the deposited data

How the results depend on the processing

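Of 102 alternative values, 69 stayed within counting error of (or, for counts, within 1.5 times) the value given, 32 moved and 1 changed sign. The alternative that dropped peaks of the smallest width left 1067 of 1068 members, so its values, counted among the 69, could hardly move. Requiring the peak midpoint in the extended gap gave 37.7% of gaps with a peak, 71.2% of divergent, 36.1% of tandem and 3.14% of convergent gaps, a length difference of 15.9 points, a median width of 1285 bp and 80.8% covering the gap. Requiring at least 50% of the peak there left 336 members, 17.1% of gaps, 18.1% of divergent, 30.6% of tandem and 2.66% of convergent gaps, a length difference of -18.5 points, a median of 924 bp, 57.7% covering, and 4 in place of 10 lists of at least 5 gaps above the share of all gaps. Under this last rule divergent gaps no longer lead. Their median gap was 102 bp and their median peak 1510 bp, against 449 bp and 1152 bp for tandem gaps. Whether this accounts for the changed order was not tested. With a limit of 500 bp the values were 59.9% of gaps, 1402 bp and 89.0% covering, and with 2000 bp 50.1%, 1313 bp and 55.8%. Over all annotated genes there were 1825 members, with 49.1% of all, 79.8% of divergent and 49.4% of tandem gaps. Peaks of at least the median width gave 51.3% of all and 91.2% of divergent gaps and 78.3% covering. Extensions of 0 and 500 bp gave 78.2% and 71.7% covering. Other motif letters gave NF-Y 37.9% and NRF1 22.6% of promoters at divergent gaps with a peak. No paired analysis was possible because the runs share 1 peak list with no sample values. Depth is unknown, width was the only stand-in for strength, strand was unknown for 561 gaps, and only outer gene bounds were used, so starts inside genes were not counted.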

Other observations

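Divergent pairs of a protein-coding gene and a long noncoding RNA gene, at most 1000 bp apart and outside the comparisons above, had a peak in 383 of 534 cases (71.7%, Wilson 95% interval 67.8 to 75.4%), below the 94.0% of divergent protein-coding pairs. Tandem pairs of this kind had one in 31.3% and convergent pairs in 11.5% of cases. The peaks at the divergent ones had a median width of 1460 bp (n = 386). Divergent pairs of noncoding RNA genes had a peak in 17 of 63 cases (27.0%, 17.6 to 39.0%). Chromosome X, which the rule leaves out, had a peak at 19 of 42 close gaps between protein-coding genes, at 13 of 15 divergent, 5 of 9 tandem and 0 of 10 convergent ones, the last allowing a share of up to 30.0% (3 counts over the total).

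Close gaps often followed each other: 663 of the 1958 gaps lay in 289 runs of at least 2, where each gene bounds the next gap. The longest run held 6 gaps on chromosome 6, from Tpi1, a glycolysis gene, to Cd4, a T cell gene. Only its first gaps, Tpi1/Usp5 and Usp5/Cdca3, had a peak, and Cdca3/Gnb3, Gnb3/P3h3, P3h3/Gpr162 and Gpr162/Cd4 had none. Across the autosomes members made up 0.381% of peaks on chromosome 18 and 3.13% on chromosome 17, and the share of close gaps with a peak ran from 45.2% on chromosome 11 to 75.3% on chromosome 13, which holds a histone cluster.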
